A study of Gossypium herbaceum with 12 samples.

Results

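In roots of Gossypium herbaceum, a diploid cotton, 53 of 24029 probe sets differed between the watered genotypes in one direction and between droughted and watered RAHS-14 in the other. They were chosen by their measured values, from watered Vagad, droughted RAHS-14 and watered RAHS-14. Any intensity under 16 was raised to 16 before logarithms to base 2 were taken. A member had to differ by at least 1 on this scale, which is 2-fold, in both comparisons with watered RAHS-14 and in opposite directions. The 3 arrays of each group also had to lie wholly above or wholly below the 3 arrays of watered RAHS-14. In 27 members watered Vagad was higher and droughted RAHS-14 lower than watered RAHS-14. In the other 26 watered Vagad was lower and droughted RAHS-14 higher. The split depended on the scaling, and with each array centred on its median the counts were 41 and 19. Each comparison of the rule by itself, with its fold and separation, held for few probe sets. Watered Vagad was higher in 1.11% and lower in 1.81% of all probe sets. Droughted RAHS-14 was higher in 2.43% and lower in 2.85%. Both comparisons ran in the same direction in further probe sets, 49 higher in both and 88 lower in both. Both differences are taken from the same watered RAHS-14 arrays, so these counts are a description of the arrays and carry no test.

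Each group had 3 arrays. Vagad is labelled drought-tolerant and RAHS-14 drought-sensitive, and both are unmodified genotypes, each represented by that single genotype. The groups were droughted Vagad (Tolerant-Drought), watered Vagad (Tolerant-Water), droughted RAHS-14 (Sensitive-Drought) and watered RAHS-14 (Sensitive-Water). Plants were 4 weeks old when drought began and stood singly in pots, and the methods call the replicates biological. For drought the methods describe a week without water, while the labels describe watering in alternate weeks, and which applied is not resolved here. Whole roots hold many cell types, so fewer cells of a type and less RNA per cell cannot be told apart in these values.

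Small heat shock proteins bind unfolding proteins and keep them from aggregating, and plants make them under heat and under other stresses that disturb proteins. Thiamine is built from a thiazole and a pyrimidine part, made by separate enzymes and then joined, and its diphosphate is a cofactor of central carbon metabolism. Ethylene is a gaseous hormone whose last synthetic step is carried out by ACC oxidase, and AP2/ERF proteins are the transcription factors through which part of its signal reaches genes. Some WRKY factors act in defence or nutrient responses, and receptor kinases sense signals outside the cell. Members of all these families were among the 53.

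**Figure D1:**
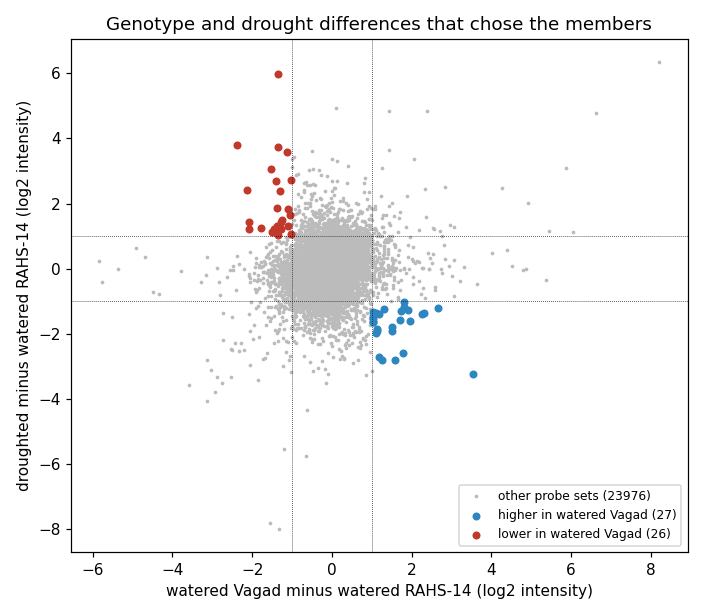
Each point is 1 probe set, placed by the log2 difference of watered Vagad minus watered RAHS-14 (x axis) and of droughted minus watered RAHS-14 (y axis). The dotted lines mark differences of 1, and the 27 and 26 members fill the lower right and upper left corners.

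The droughted Vagad arrays were not used to choose the members, but they did not form a close group. Replicates 1 and 2 had median intensities of 322 and 345.3, against 70.9 on replicate 3 and a range of 60.8 to 74.2 over the 9 arrays outside that group. Their mean correlations with the other 10 arrays were 0.61 and 0.461, against 0.973 to 0.983 for those 10 arrays. The median SD of log2 values across probe sets was 1.48 in droughted Vagad, 0.138 in watered Vagad, 0.106 in droughted RAHS-14 and 0.112 in watered RAHS-14. The actin control probe sets at the 3' and 5' ends had a ratio of 41.3 on replicate 3 and of 9.23 and 5.42 on replicates 1 and 2, while the 9 arrays outside that group ranged from 12.5 to 20.2. Values of droughted Vagad are therefore given for each array, and comparisons also for replicate 3 alone. The actin ratio of replicate 3 was the highest of the 12 arrays, and its part in the results was not tested. Of 5 annotated root marker probe sets, namely WER, a MYB factor of the root epidermis in Arabidopsis, and 4 for Meloidogyne-induced cotton 1, 2 (both of that cotton gene) were at or below 16 on every droughted RAHS-14 array. The summed intensity of the 5 was 917 to 1661 in droughted Vagad and 2867 to 3256 in watered Vagad. It was 420 to 442 in droughted RAHS-14 and 7739 to 8465 in watered RAHS-14. The 2 at or below 16 dominated the sum, with means of 4073 and 3607 in watered RAHS-14 and of 9.11 and 15.2 in droughted RAHS-14. The other 2 of that cotton gene averaged 233 and 63.4 in watered and 131 and 48.2 in droughted RAHS-14. WER went the other way, from 78.6 in watered to 220 in droughted RAHS-14. Over 13 green-tissue probe sets that were not members the sums were 7121 to 9909, 6299 to 7287, 6005 to 6219 and 6889 to 7276 in the same groups. Single green-tissue probe sets ran in opposite directions. The chlorophyll-binding LHB1B1 (Ghi10635.1.S1_x_at) averaged 1702 in watered and 220 in droughted RAHS-14. A photosystem II CP43 probe set (GhiAffx16290.1.S1_s_at) averaged 711 in watered and 2159 in droughted RAHS-14. The part of these markers in the results was not tested.

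Among the 27 members higher in watered Vagad, the log2 difference of watered Vagad minus watered RAHS-14 lay between 1.02 and 3.54 with a median of 1.49. Droughted minus watered RAHS-14 lay between -3.23 and -1.02 with a median of -1.58. In the other direction these differences were -2.37 to -1.02 (median -1.36) and 1.04 to 5.98 (median 1.48). Over all probe sets both medians were 0. Many members were dim in their lower group, whose median intensity over members was 50.7 in droughted RAHS-14 for the 27 and 60.9 in watered Vagad for the 26. With every value under 64 raised to 64, 17 of the 27 and 14 of the 26 still met the rule. On all 3 arrays, droughted RAHS-14 was at or below 16 in 2 of the 27 and watered Vagad in 3 of the 26. On 1 or 2 arrays this held for a further 5 in each direction. At the edge of the rule, multicopper oxidase (GhiAffx2668.1.A1_at) was inside at differences of 1.80 and -1.02, and triacylglycerol lipase (Ghi8009.1.S1_s_at) at 1.02 and -1.53. A probe set annotated to the arginine, diaminopimelate and ornithine decarboxylases (Ghi9106.3.S1_s_at) was just outside at 1.48 and -0.997, as was the unannotated Ghi7874.1.S1_s_at at 0.996 and -3.16. In the other direction GhiAffx39121.1.S1_s_at was inside at -1.02 and 1.05 and a membrane protein (GhiAffx2461.1.A1_s_at) at -1.03 and 2.72. The unannotated GhiAffx16092.1.A1_s_at was outside at -1.0003 and 0.9985, and Ghi6874.1.A1_s_at at -0.998 and 3.12.

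**Figure D2:**
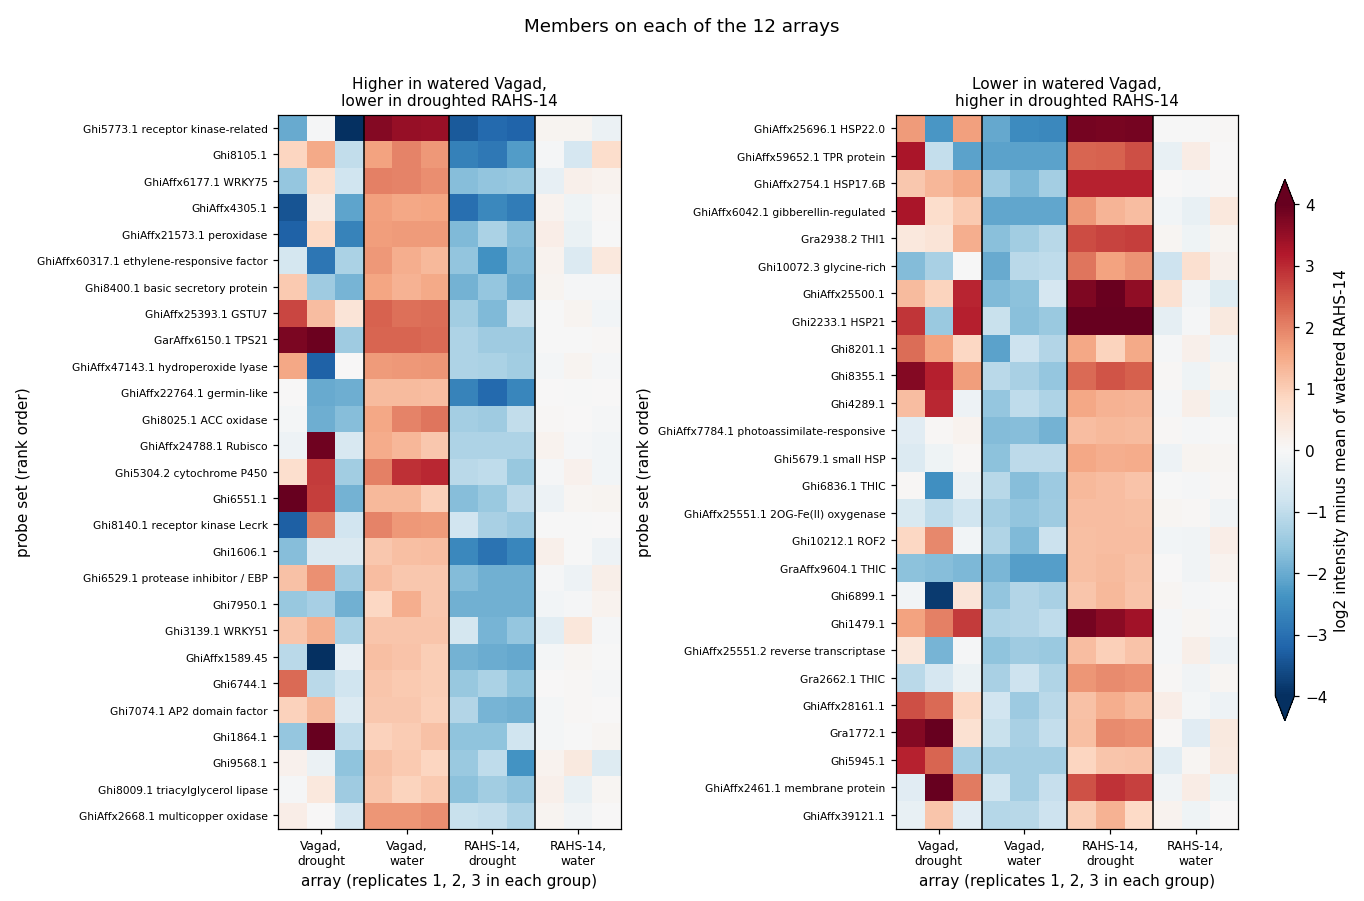
Rows are the 53 members and columns the 12 arrays, coloured by log2 intensity minus the mean of watered RAHS-14 (red higher, blue lower, colours ending at 4 in either direction). The colours of watered Vagad and droughted RAHS-14 are opposite in every row, as the rule requires, while replicates 1 and 2 of droughted Vagad vary from row to row.

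The member with the widest range among those higher in watered Vagad was a receptor protein kinase-related gene (Ghi5773.1.S1_at), one of a class of membrane proteins that sense signals outside the cell. Its intensities were 145, 567 and 34.1 in droughted Vagad, 7483, 6660 and 6485 in watered Vagad, 57.0, 67.6 and 64.1 in droughted RAHS-14, and 639, 642 and 498 in watered RAHS-14. Watered Vagad was 11.7-fold above watered RAHS-14, and watered RAHS-14 9.39-fold above droughted RAHS-14. All droughted Vagad arrays lay below all watered Vagad arrays, and replicate 3 lay below droughted RAHS-14. A second kinase, the lectin receptor kinase Lecrk (Ghi8140.1.S1_s_at), joins a carbohydrate-binding domain to a kinase. It measured 15.4, 625 and 89.95 in droughted Vagad, 609.6, 507 and 496 in watered Vagad, 89.6, 62.3 and 55.2 in droughted RAHS-14, and 149.9, 152 and 156 in watered RAHS-14. Here replicate 2 of droughted Vagad stood above the watered Vagad values and replicates 1 and 3 below every watered array. Of 103 probe sets annotated as kinases, phosphatases, calmodulins and receptors, these 2 were members in this direction and 0 in the other. Against watered RAHS-14, with arrays wholly apart and at least 2-fold, watered Vagad was higher in 13 and lower in 12 of the 103. Droughted RAHS-14 was higher in 3 and lower in 7. Over all probe sets the shares were 1.11% and 1.81% for watered Vagad and 2.43% and 2.85% for droughted RAHS-14. The annotations cover only probe sets that the study had picked from these arrays. Counts in this and every later annotation list are therefore no independent evidence.

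Transcription factors made up 5 members, and each was higher in watered Vagad and lower in droughted RAHS-14. WRKY75, which in Arabidopsis acts in the response to phosphate shortage, had intensities (GhiAffx6177.1.S1_at) of 24.5, 113 and 40.6 in droughted Vagad, 291, 285 and 261 in watered Vagad, 21.8, 23.7 and 25.2 in droughted RAHS-14, and 57.2, 81.4 and 77.8 in watered RAHS-14. The 3 watered Vagad values stood above the other 9 arrays. The paper names a second WRKY75 probe set, which was not a member, so these values describe this probe set only. WRKY51 (Ghi3139.1.A1_at), a defence regulator in Arabidopsis, was at 161, 197 and 30.6 in droughted Vagad, 160.3, 159.8 and 161 in watered Vagad, 45.7, 20.5 and 25.5 in droughted RAHS-14, and 55.9, 101 and 72.1 in watered RAHS-14. Its watered Vagad values were almost equal, with replicate 1 of droughted Vagad at their level, replicate 2 above and replicate 3 below every watered array. The ethylene-responsive transcription factor (GhiAffx60317.1.S1_at) measured 106, 23.2 and 72.8 in droughted Vagad, 577, 480 and 428 in watered Vagad, 57.9, 32.3 and 50.3 in droughted RAHS-14, and 189.9, 119 and 231 in watered RAHS-14. Each droughted Vagad array fell below all watered arrays of either genotype. An AP2 domain factor (Ghi7074.1.S1_x_at) was at 598, 766 and 218 in droughted Vagad and averaged 651 ± 28.5 in watered Vagad, 104 ± 31.3 in droughted RAHS-14 and 317 ± 15.4 in watered RAHS-14 (SD, n = 3 arrays here and below). Ghi6529.1.S1_at, which carries annotations both as a trypsin and protease inhibitor and as the ethylene-responsive element binding protein ATEBP, was at 496, 779.8 and 82.3 in droughted Vagad and averaged 487 ± 29.6 in watered Vagad, 61.0 ± 4.87 in droughted RAHS-14 and 224 ± 34.9 in watered RAHS-14. Which of these annotations describes it was not tested. Of the 73 probe sets annotated as WRKY, NAC, MYB or other transcription factors, 5 were members in this direction and 0 in the other. The list as a whole ran otherwise, since against watered RAHS-14, with arrays wholly apart, watered Vagad was at least 2-fold higher in 9 and lower in 23, with a median difference of -0.51, and droughted RAHS-14 was higher in 6 and lower in 19. For 25 probe sets of AP2/ERF, DREB and dehydration-responsive proteins, a list that overlaps this one, the counts of members were 3 and 0. Watered Vagad was higher in 6 and lower in 8 of these, and droughted RAHS-14 higher in 1 and lower in 10. Beside both lists, the shares over all probe sets were 1.11% and 1.81% for watered Vagad and 2.43% and 2.85% for droughted RAHS-14.

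A probe set of ACC oxidase (Ghi8025.1.S1_s_at), the enzyme that makes ethylene from its precursor, followed the same order. It measured 271, 74.5 and 87.7 in droughted Vagad, 837, 1133 and 1272 in watered Vagad, 111, 108 and 143 in droughted RAHS-14, and 295, 287 and 276 in watered RAHS-14. Watered Vagad was 3.72-fold above watered RAHS-14, watered RAHS-14 was 2.39-fold above droughted RAHS-14, and each droughted Vagad array was below the lowest watered RAHS-14 array. Together with the ethylene-responsive factor and Ghi6529.1.S1_at, it made 3 of 30 hormone-annotated probe sets in this direction. The 1 in the other direction was a gibberellin-regulated gene. Of the 30, watered Vagad was higher in 12 and lower in 6, and droughted RAHS-14 higher in 6 and lower in 6, by the same thresholds. The shares over all probe sets were 1.11% and 1.81% for watered Vagad and 2.43% and 2.85% for droughted RAHS-14. For another ACC oxidase probe set, which was not a member, the paper reports elevated expression under drought in RAHS-14. The paper sets part of its list of genes raised in droughted RAHS-14 against droughted Vagad. The contrast behind that report may thus differ from droughted against watered RAHS-14. The order above is described for this probe set alone.

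Enzymes of oxidation and detoxification formed another part of the 27. Peroxidase 10 (GhiAffx21573.1.S1_at), of a family that oxidizes phenolic compounds with hydrogen peroxide, was at 24.9, 402 and 36.3 in droughted Vagad, 748, 760.2 and 750.4 in watered Vagad, 67.8, 96.0 and 72.0 in droughted RAHS-14, and 281, 194 and 230 in watered RAHS-14. Watered Vagad varied by little, and 2 of 3 droughted Vagad arrays lay below every droughted RAHS-14 array. The glutathione transferase GSTU7 (GhiAffx25393.1.S1_at), which joins glutathione to reactive compounds, had 348, 128 and 76.9 in droughted Vagad, 276, 248 and 257 in watered Vagad, 20.5, 14.96 and 27.5 in droughted RAHS-14, and 53.5, 59.1 and 50.3 in watered RAHS-14. Its watered Vagad mean was 4.80-fold that of watered RAHS-14, and even its lowest droughted Vagad array was above all droughted RAHS-14 arrays. These 2 came from 13 annotated peroxidase and glutathione probe sets, with 0 in the other direction. Of the 13, watered Vagad was higher in 9 and lower in 0, and droughted RAHS-14 higher in 2 and lower in 2. Over all probe sets watered Vagad was higher in 1.11% and lower in 1.81%, and droughted RAHS-14 in 2.43% and 2.85%. The 13 were among those the study had picked from these arrays. A multicopper oxidase (GhiAffx2668.1.A1_at) was at 552, 461 and 289.5 in droughted Vagad and averaged 1597 ± 71.8 in watered Vagad, 227 ± 27.6 in droughted RAHS-14 and 459 ± 39.4 in watered RAHS-14. A cytochrome P450 (Ghi5304.2.A1_x_at), of a large family of oxygenases, was at 82.0, 355 and 19.4 in droughted Vagad and averaged 335 ± 114 in watered Vagad, 22.4 ± 3.99 in droughted RAHS-14 and 51.1 ± 5.10 in watered RAHS-14.

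A germin-like protein (GhiAffx22764.1.A1_at), a secreted protein of the cell wall, was at 139, 33.6 and 35.7 in droughted Vagad and averaged 328 ± 7.18 in watered Vagad, 18.8 ± 5.34 in droughted RAHS-14 and 137 ± 1.95 in watered RAHS-14. A plant basic secretory protein (Ghi8400.1.S1_s_at), of a family linked to defence, was at 308, 56.3 and 41.7 in droughted Vagad and averaged 423 ± 28.1 in watered Vagad, 43.4 ± 6.85 in droughted RAHS-14 and 150.1 ± 9.20 in watered RAHS-14. In both genes replicates 2 and 3 of droughted Vagad lay below every watered array. Fatty acid 9-hydroperoxide lyase (GhiAffx47143.1.S1_at), which splits oxidized fatty acids into aldehydes, was at 882, 31.7 and 304 in droughted Vagad, 985, 997 and 1031 in watered Vagad, 127, 124 and 115 in droughted RAHS-14, and 286, 323 and 293 in watered RAHS-14. Triacylglycerol lipase (Ghi8009.1.S1_s_at), which releases fatty acids from storage lipid, was at 831, 1165 and 324 in droughted Vagad and averaged 1759 ± 142 in watered Vagad, 299.5 ± 29.2 in droughted RAHS-14 and 873 ± 150 in watered RAHS-14. TPS21 (GarAffx6150.1.S1_at), a terpene synthase that makes caryophyllene in Arabidopsis, gave 588, 653 and 1.35 in droughted Vagad, 217, 219.6 and 207 in watered Vagad, 18.4, 2.41 and 1.55 in droughted RAHS-14, and 42.6, 42.7 and 44.5 in watered RAHS-14. On replicates 1 and 2 of droughted Vagad it was above, and on replicate 3 far below, the watered Vagad values. A probe set annotated as Rubisco (GhiAffx24788.1.A1_at) was at or below 16 on each droughted RAHS-14 array, so watered RAHS-14 was at least 2.35-fold and watered Vagad at least 5.80-fold above droughted RAHS-14. It was at 32.6, 555 and 23.9 in droughted Vagad, 105, 93.3 and 79.7 in watered Vagad, 2.02, 2.03 and 8.95 in droughted RAHS-14, and 41.7, 36.3 and 35.0 in watered RAHS-14.

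The annotation lists used here name no gene for the 9 other members of this direction. The 4 with the largest smaller difference were Ghi8105.1.A1_s_at, GhiAffx4305.1.S1_at, Ghi6551.1.S1_at and Ghi1606.1.S1_at. Ghi8105.1.A1_s_at was at 923, 1435 and 258 in droughted Vagad and averaged 1747 ± 233 in watered Vagad, 85.2 ± 20.2 in droughted RAHS-14 and 546 ± 261 in watered RAHS-14. GhiAffx4305.1.S1_at, annotated only as an unknown protein, was at 32.8, 456 and 82.3 in droughted Vagad and averaged 1067 ± 35.8 in watered Vagad, 51.6 ± 8.05 in droughted RAHS-14 and 356 ± 36.3 in watered RAHS-14. Ghi6551.1.S1_at was at 977, 403 and 13.3 in droughted Vagad, 146, 146 and 115 in watered Vagad, 18.5, 21.1 and 29.1 in droughted RAHS-14, and 51.7, 63.1 and 64.9 in watered RAHS-14. Ghi1606.1.S1_at was at 466, 1022 and 1008 in droughted Vagad and averaged 3407 ± 202 in watered Vagad, 232 ± 33.1 in droughted RAHS-14 and 1520 ± 214 in watered RAHS-14. The remaining 5 had differences of 1.03 to 1.12 for watered Vagad minus watered RAHS-14 and of -1.97 to -1.33 for droughted minus watered RAHS-14. In 1 of them, Ghi7950.1.S1_at, all droughted RAHS-14 arrays were at or below 16, and watered RAHS-14 was at least 3.82-fold above them.

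**Figure D3:**
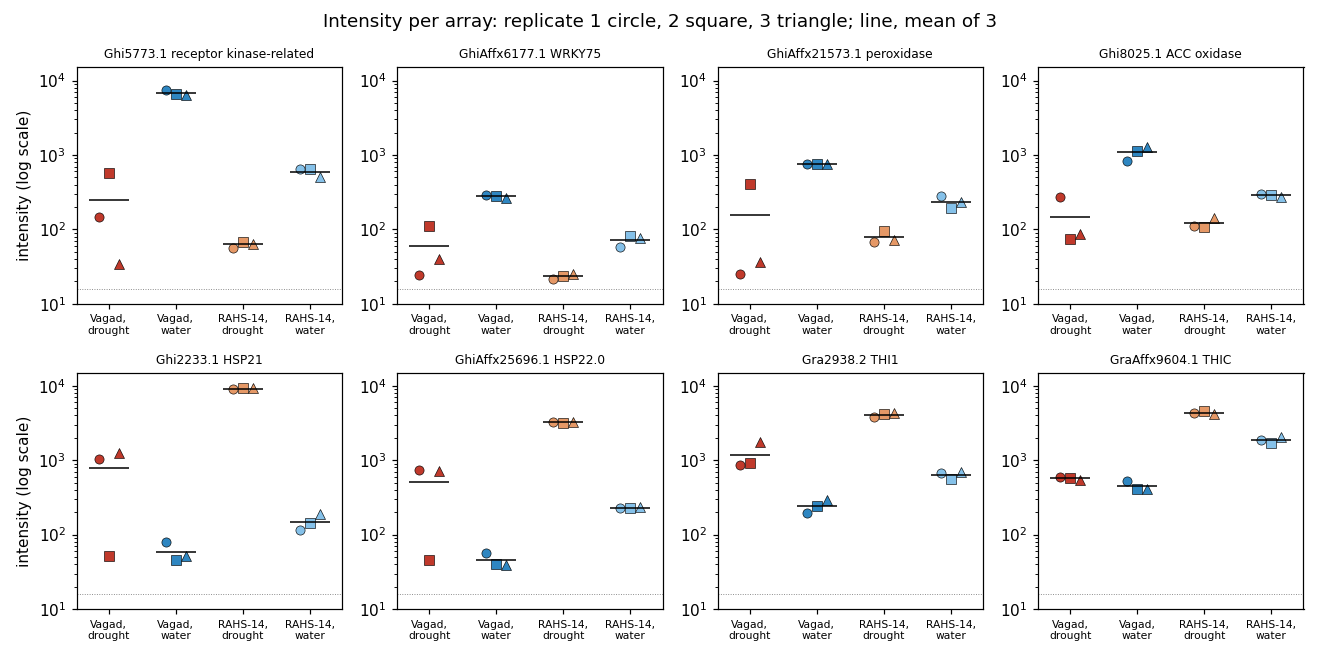
Intensity on a log axis for 4 members of each direction, with symbols for replicates 1, 2 and 3, a line at each group mean and a dotted line at 16. In the upper row watered Vagad is the highest group, and in the lower row droughted RAHS-14 is the highest, with droughted Vagad between the watered Vagad and droughted RAHS-14 values on replicate 3 in each lower panel.

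Small heat shock proteins led the 26 members that were lower in watered Vagad and higher in droughted RAHS-14. HSP21 (Ghi2233.1.S1_at), a plastid protein in Arabidopsis, measured 1053, 52.4 and 1251 in droughted Vagad, 78.6, 45.8 and 52.2 in watered Vagad, 8952, 9295 and 9332 in droughted RAHS-14, and 115, 143 and 191 in watered RAHS-14. Droughted RAHS-14 was 62.9-fold above watered RAHS-14, the widest such difference of the 53, and watered RAHS-14 was 2.55-fold above watered Vagad. Replicates 1 and 3 of droughted Vagad lay between, and replicate 2 was at the watered Vagad level. ATHSP22.0 (GhiAffx25696.1.S1_at), an endoplasmic reticulum protein in Arabidopsis, was at 747, 45.8 and 721 in droughted Vagad, 56.1, 40.1 and 38.9 in watered Vagad, 3233, 3184 and 3266 in droughted RAHS-14, and 226, 226 and 238 in watered RAHS-14. The same 2 droughted Vagad arrays were high and the same 1 was low. A class I small heat shock protein of the cytosol (GhiAffx2754.1.A1_at) had 627, 741 and 839 in droughted Vagad, 107, 85.2 and 115 in watered Vagad, 2481, 2473 and 2487 in droughted RAHS-14, and 297, 283 and 305 in watered RAHS-14. Here the 3 droughted Vagad arrays were close, above both watered groups and below droughted RAHS-14. A low molecular weight heat shock protein (Ghi5679.1.S1_s_at) matched to the same Arabidopsis gene was bright throughout, at 2199, 2848 and 3333 in droughted Vagad, 1037, 1550 and 1541 in watered Vagad, 9466, 8799 and 9089 in droughted RAHS-14, and 2794, 3491 and 3415 in watered RAHS-14. Its droughted Vagad values lay above those of watered Vagad and overlapped those of watered RAHS-14.

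Over 30 probe sets annotated as heat shock proteins or chaperones, 4 were members in this direction and 0 in the other. Against watered RAHS-14, with the arrays wholly apart, droughted RAHS-14 was at least 2-fold higher in 13 and lower in 1, while watered Vagad was higher in 0 and lower in 8. Over all probe sets droughted RAHS-14 was higher in 2.43% and lower in 2.85%, and watered Vagad in 1.11% and 1.81%. The medians of the 2 differences over the 30 were 0.60 for drought and -0.44 for genotype, against 0 over all probe sets for both. Of the 8, 2 are not heat shock proteins, a copper chaperone and a high mobility group protein caught by letters of its database name. Several chaperones that were not members were likewise high in droughted RAHS-14 but less than 2-fold lower in watered Vagad. HSP70 (Ghi10640.1.S1_s_at), a chaperone that refolds proteins, averaged 134 in watered Vagad, 2755 in droughted RAHS-14 and 255 in watered RAHS-14. ATHSP90.1 (GhiAffx17865.1.S1_at), which matures signalling proteins, averaged 54.5 in watered Vagad, 938 in droughted RAHS-14 and 75.5 in watered RAHS-14. Probe sets for one gene did not always match. A second HSP21 probe set (GhiAffx11624.1.S1_s_at) averaged 106 in watered Vagad, 295 in droughted RAHS-14 and 108 in watered RAHS-14, with no difference between the watered genotypes near 2-fold. A second probe set of the low molecular weight protein (Ghi5794.1.A1_s_at) averaged 145 in watered Vagad, 354 in droughted RAHS-14 and 480.1 in watered RAHS-14, and here droughted RAHS-14 was not above watered RAHS-14. The annotation lists were drawn up by the study from these arrays, so such counts are no independent evidence. A co-chaperone outside the keyword list, the FK506-binding protein ROF2 (Ghi10212.1.S1_x_at), which in Arabidopsis takes part in heat acclimation, was at 161, 348 and 85.5 in droughted Vagad, 39.9, 26.9 and 50.0 in watered Vagad, 211, 214 and 214 in droughted RAHS-14, and 84.7, 82.1 and 109 in watered RAHS-14. All droughted Vagad arrays were above watered Vagad. A tetratricopeptide repeat protein (GhiAffx59652.1.S1_at), with a repeat that binds other proteins, was at 676, 36.3 and 1.99 in droughted Vagad, 2.16, 7.20 and 4.45 in watered Vagad, 356, 359 and 421 in droughted RAHS-14, and 57.2, 86.0 and 71.1 in watered RAHS-14. Since watered Vagad was below 16 throughout, watered RAHS-14 was at least 4.46-fold and droughted RAHS-14 at least 23.6-fold above it. Replicate 3 of droughted Vagad was also below 16, unlike replicates 1 and 2.

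Genes of thiamine synthesis made up 4 of the 26. THI1 (Gra2938.2.A1_at), which makes the thiazole part, measured 849.8, 908 and 1755 in droughted Vagad, 198, 244 and 292 in watered Vagad, 3829, 4144 and 4341 in droughted RAHS-14, and 666, 559 and 685 in watered RAHS-14. Droughted RAHS-14 was 6.46-fold above watered RAHS-14, and the 3 droughted Vagad arrays lay between watered RAHS-14 and droughted RAHS-14. THIC, which makes the pyrimidine part, was represented by 3 probe sets matched to a single Arabidopsis gene, and whether they detect separate cotton copies is not annotated. GraAffx9604.1.S1_s_at was at 604, 582 and 546 in droughted Vagad, 526, 412 and 411 in watered Vagad, 4283, 4524 and 4242 in droughted RAHS-14, and 1891, 1704 and 2051 in watered RAHS-14. Ghi6836.1.S1_s_at was at 1649, 291 and 1374 in droughted Vagad, 743, 497 and 580.1 in watered Vagad, 3929, 3789 and 3539 in droughted RAHS-14, and 1586, 1554 and 1671 in watered RAHS-14. Gra2662.1.S1_s_at was dimmer, at 70.5, 94.1 and 123.4 in droughted Vagad, 61.7, 83.8 and 65.0 in watered Vagad, 505, 557 and 530.1 in droughted RAHS-14, and 156, 137 and 158 in watered RAHS-14. All 3 were lowest in the watered Vagad group on average and at least 2.32-fold higher in droughted than in watered RAHS-14. Their droughted Vagad values differed, since replicate 3 was above watered Vagad by 0.29, 1.20 and 0.83 on the log2 scale in the order given. Of 8 probe sets annotated to thiamine and vitamin synthesis, 7 were at least 2-fold lower in watered Vagad and 4 at least 2-fold higher in droughted RAHS-14, both against watered RAHS-14, and 0 differed the other way in either comparison. Over all probe sets these shares were 1.81% and 2.43%. The 7 include Ghi2241.2.A1_at, annotated as a ketopantoate hydroxymethyltransferase and not to thiamine. It averaged 3.33 in watered Vagad, 212 in droughted RAHS-14 and 222 in watered RAHS-14. Further THI1 probe sets did not share the drought difference. Ghi10424.1.S1_s_at averaged 404 in watered Vagad, 1034 in droughted RAHS-14 and 1158 in watered RAHS-14, and Gra70.1.S1_s_at averaged 412 in watered Vagad, 1075 in droughted RAHS-14 and 1186 in watered RAHS-14.

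The other annotated members of this direction had varied roles. A gibberellin-regulated gene (GhiAffx6042.1.S1_s_at), of a family of small cysteine-rich proteins, was at 650.1, 109 and 139 in droughted Vagad, 5.64, 4.33 and 12.3 in watered Vagad, 224, 174 and 161 in droughted RAHS-14, and 62.5, 54.4 and 90.8 in watered RAHS-14. Watered Vagad lay below 16, so that watered RAHS-14 was at least 4.33-fold and droughted RAHS-14 at least 11.7-fold higher. A glycine-rich protein (Ghi10072.3.A1_at), of a kind often found in cell walls, was at 19.4, 26.3 and 64.3 in droughted Vagad, 15.8, 30.4 and 31.8 in watered Vagad, 289, 198 and 227 in droughted RAHS-14, and 36.3, 101 and 74.5 in watered RAHS-14. A photoassimilate-responsive protein (GhiAffx7784.1.A1_s_at), of a family named for its response to sugars, was at 453, 632 and 672 in droughted Vagad and averaged 180.2 ± 11.8 in watered Vagad, 1475 ± 45.7 in droughted RAHS-14 and 615 ± 18.6 in watered RAHS-14. The droughted Vagad arrays were all above watered Vagad and below droughted RAHS-14. An oxidoreductase of the 2OG-Fe(II) oxygenase family (GhiAffx25551.1.S1_a_at), also annotated as a cytochrome P450, was at 455, 348 and 398 in droughted Vagad and averaged 256 ± 20.3 in watered Vagad, 1632 ± 16.5 in droughted RAHS-14 and 699 ± 54.4 in watered RAHS-14. GhiAffx25551.2.A1_at, which shares its cluster number with that probe set but is annotated as a reverse transcriptase, was at 353, 71.4 and 249 in droughted Vagad and averaged 90.9 ± 6.33 in watered Vagad, 562 ± 53.3 in droughted RAHS-14 and 261 ± 40.5 in watered RAHS-14. Whether the 2 probe sets detect separate transcripts is not annotated. An integral membrane protein (GhiAffx2461.1.A1_s_at) was at 30.0, 945 and 171 in droughted Vagad and averaged 19.2 ± 5.57 in watered Vagad, 270 ± 29.5 in droughted RAHS-14 and 41.2 ± 7.50 in watered RAHS-14.

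No gene name was found for 10 members of this direction. The leading 4 were GhiAffx25500.1.S1_at, Ghi8201.1.S1_at, Ghi8355.1.A1_at and Ghi4289.1.S1_s_at. GhiAffx25500.1.S1_at was at 130.3, 102 and 456 in droughted Vagad and averaged 22.2 ± 10.5 in watered Vagad, 737 ± 103 in droughted RAHS-14 and 57.6 ± 23.0 in watered RAHS-14, and droughted RAHS-14 was 13.4-fold above watered RAHS-14. Ghi8201.1.S1_at was at 329, 216 and 126 in droughted Vagad and averaged 28.3 ± 12.7 in watered Vagad, 179 ± 41.7 in droughted RAHS-14 and 70.6 ± 8.62 in watered RAHS-14. Ghi8355.1.A1_at was at 1232, 840.1 and 308 in droughted Vagad and averaged 39.6 ± 6.55 in watered Vagad, 510.4 ± 47.5 in droughted RAHS-14 and 97.3 ± 9.27 in watered RAHS-14, so that all 3 droughted Vagad arrays were above both watered groups. Ghi4289.1.S1_s_at was at 204, 693 and 75.1 in droughted Vagad and averaged 36.3 ± 6.50 in watered Vagad, 233 ± 17.7 in droughted RAHS-14 and 87.2 ± 13.1 in watered RAHS-14. The other 6 had differences of -1.36 to -1.02 for watered Vagad minus watered RAHS-14 and of 1.04 to 3.60 for droughted minus watered RAHS-14.

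The arrays of droughted Vagad, which did not enter the choice, bear on the question of how these genes differed under drought in the tolerant genotype. On replicate 3, each of the 27 members higher in watered Vagad was lower than in watered Vagad, with differences of -7.65 to -1.45 on the log2 scale and a median of -2.64. A drop of at least 2-fold was seen for 3.97% of all probe sets. Of the 26 members lower in watered Vagad, 20 were at least 2-fold above the watered Vagad mean on replicate 3. This held for 5.72% of all probe sets. On replicate 3, 24 of the 26 were above all watered Vagad arrays, a count for which no share over all probe sets was taken. The median difference was 1.73. In RAHS-14 the corresponding medians, which the rule set, were -1.58 and 1.48. The watered Vagad arrays in this comparison were used by the rule. Replicate 3 is a single array, and its actin ratio of 41.3 lay above the 12.5 to 20.2 of the arrays outside its group. What part this had in the differences was not tested. Among the 240 other probe sets with watered Vagad at least 2-fold above watered RAHS-14 and groups apart, 107 (44.6%) were at least 2-fold lower on replicate 3 than in watered Vagad. Among the 410 others with watered Vagad lower, 149 (36.3%) were at least 2-fold higher. The rule's drought difference in RAHS-14 was shared by further probe sets. Of the 657 others with droughted RAHS-14 lower, 35.3% were at least 2-fold lower on replicate 3 than in watered Vagad. Of the 558 others with it higher, 41.2% were at least 2-fold higher. For members these shares were 100% and 76.9%, and the differences between the shares were not tested.

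**Figure D4:**
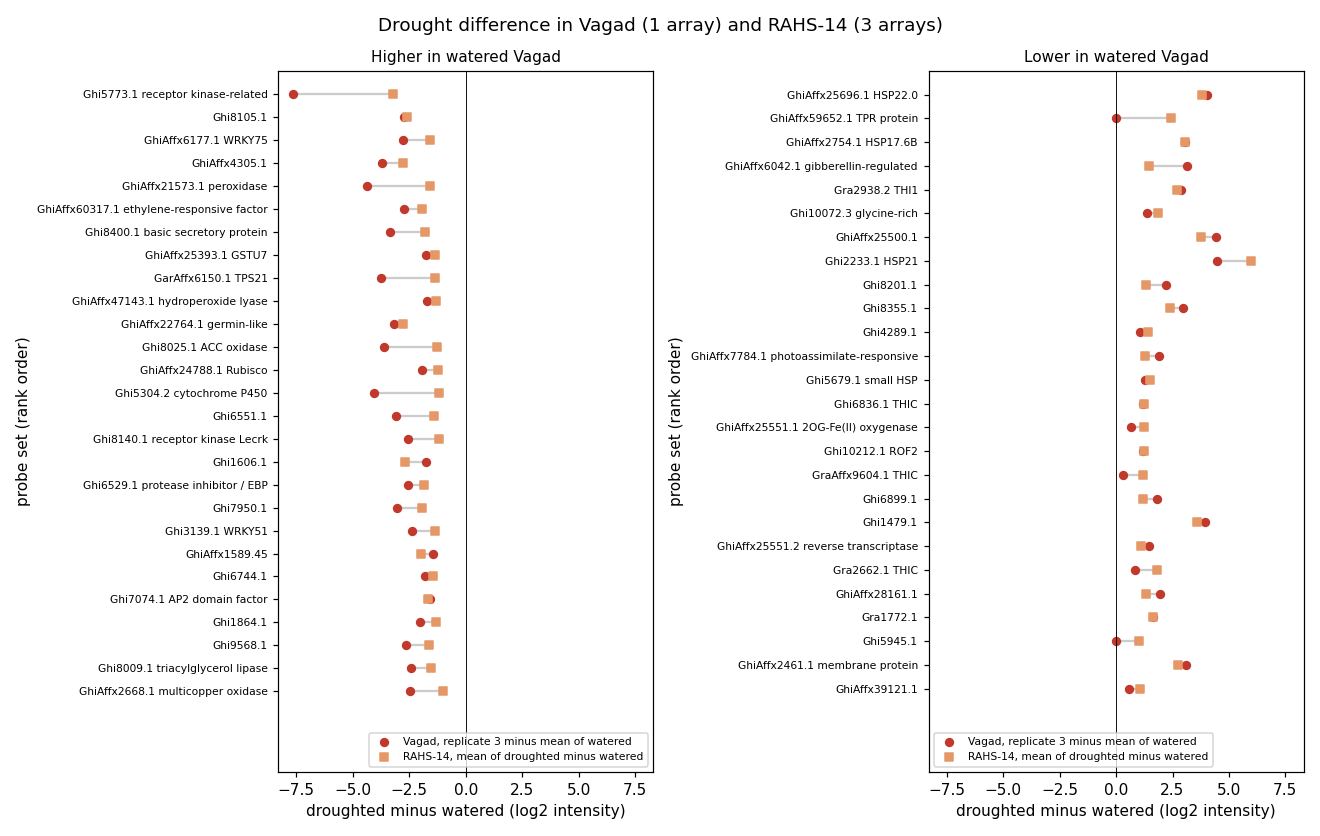
For each member, the circle is replicate 3 of droughted Vagad minus the mean of watered Vagad and the square is the mean of droughted minus the mean of watered RAHS-14, both in log2 intensity. All circles of the left panel lie below 0, between -7.65 and -1.45, and those of the right panel lie at 0 to 4.45.

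With all 6 arrays, limma called 0 of the 53 members between droughted and watered Vagad, and 0 of all probe sets (0.0% higher and 0.0% lower), where a call needed a change of 2-fold or more and p, adjusted by Benjamini-Hochberg, under 0.05. The smallest adjusted p of any probe set was 0.309. With p left unadjusted at the same thresholds, 12 of the 27 were lower, 13 of the 26 were higher and 0 ran the other way, against 2.41% lower and 10.9% higher of all probe sets. At its unadjusted threshold the methods' t-test called 10 of the 27 lower and 13 of the 26 higher, against 1.83% and 4.03% of all probe sets, and 0 members after adjustment. All 3 droughted Vagad arrays lay below all watered Vagad arrays in 16 of the 27, against 9.16% of all probe sets, and above them in 17 of the 26, against 18.2%. The rule had used the watered Vagad arrays, which are the baseline of all these counts. No share among probe sets with the same genotype difference was taken for them. These counts and p values of members are therefore a description and no test. On replicates 1 and 2 the median difference from watered Vagad was -1.50 and -1.23 for the 27 members and 2.30 and 2.02 for the 26, while over all probe sets these arrays were higher by a median of 0.87 and 1.08. On at least 1 of these 2 arrays, 20 of the 53 members were above every other array. No share over all probe sets was taken for this count, and it is not read as a result about the members.

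Without replicates 1 and 2 of droughted Vagad, in a limma fit of the other 10 arrays in which replicate 3 was taken to have the spread of the other groups, all 27 were called lower, against 2.8% of probe sets. Of the 26, 18 were called higher, against 3.19%. These calls rest on 1 droughted Vagad array. The rule had also used the watered Vagad arrays, which are the baseline here, and the other groups, which set the spread. Among other probe sets with the rule's genotype difference, 44.6% of those higher in watered Vagad were at least 2-fold lower on replicate 3. Of those lower in watered Vagad, 36.3% were at least 2-fold higher. Calls and adjusted p values of members in this fit are therefore a description and no test. In that fit, the receptor kinase-related gene (Ghi5773.1.S1_at) had a log2 difference of -7.65 ± 0.17 (SE, adjusted p = 2.68e-07), and peroxidase 10 (GhiAffx21573.1.S1_at) of -4.37 ± 0.24 (SE, adjusted p = 4.31e-05). ACC oxidase (Ghi8025.1.S1_s_at) was at -3.60 ± 0.25 (SE, adjusted p = 0.000141) and WRKY75 (GhiAffx6177.1.S1_at) at -2.78 ± 0.20 (SE, adjusted p = 0.00016). In the other direction HSP21 (Ghi2233.1.S1_at) reached 4.45 ± 0.35 (SE, adjusted p = 0.000275) and ATHSP22.0 (GhiAffx25696.1.S1_at) 4.02 ± 0.19 (SE, adjusted p = 1.78e-05). THI1 (Gra2938.2.A1_at) was at 2.86 ± 0.22 (SE, adjusted p = 0.000218). Of the 8 not called, the THIC probe sets GraAffx9604.1.S1_s_at and Gra2662.1.S1_s_at had 0.29 ± 0.16 (SE, adjusted p = 0.3) and 0.83 ± 0.17 (SE, adjusted p = 0.0208), the second being under 2-fold. ROF2 (Ghi10212.1.S1_x_at) had 1.18 ± 0.33 (SE, adjusted p = 0.0524) and the glycine-rich protein (Ghi10072.3.A1_at) 1.37 ± 0.63 (SE, adjusted p = 0.204). The oxygenase (GhiAffx25551.1.S1_a_at) was under 2-fold, at 0.64 ± 0.11 (SE, adjusted p = 0.00796). For the tetratricopeptide repeat protein and Ghi5945.1.S1_s_at both sides were below 16, and GhiAffx39121.1.S1_s_at had 0.58 ± 0.25 (SE, adjusted p = 0.175). In 1 of the members called without replicates 1 and 2, Ghi6551.1.S1_at, the fit of all 6 arrays had the other sign, with 0.45 ± 1.47 (SE, adjusted p = 0.831) against -3.08 ± 0.28 (SE, adjusted p = 0.000518) without them. A separate fit of 5 arrays left out replicate 3 and kept replicates 1 and 2. It called 9 of the 27, 7 lower and 2 higher, and 13 of the 26, all higher, against 8.36% lower and 30.2% higher of all probe sets.

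Between the droughted genotypes the 2 directions differed in how replicate 3 of droughted Vagad stood against droughted RAHS-14, whose arrays the rule had used. Among the 27 it was above all droughted RAHS-14 arrays in 15, among them in 8 and below all in 4, with a median difference of 0.41. Over all probe sets 32.1% were above and 27.5% below. Among the 26 it was below all droughted RAHS-14 arrays in 26, with a median difference of -1.38 and a range of -4.56 to -0.41. All 3 droughted Vagad arrays were above droughted RAHS-14 in 9 of the 27 (16.3% of all probe sets) and below it in 15 of the 26 (10.3%). Against watered RAHS-14, replicate 3 was below all arrays in 25 of the 27, within them in 1 and above in 1. For the 26 it was above all in 14, within in 4 and below in 8. Shares over all probe sets were not taken for these counts against watered RAHS-14, so they only describe the members. 

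With all 6 droughted arrays limma called 0 of the 53 members and 0 of all probe sets (0.0% higher and 0.0% lower). The rule had used the droughted RAHS-14 arrays, so calls and p values of members here are a description and no test. The 10-array fit below keeps 1 droughted Vagad array. Its SE and p values therefore take their spread from the other groups and hold no spread between droughted Vagad arrays. With unadjusted p, 5 of the 27 were higher in Vagad and 13 of the 26 lower, against 8.34% higher and 2.61% lower of all probe sets. The methods' t-test after adjustment called 1 member lower, with 1 higher and 2 lower among all probe sets. In the 10-array fit without replicates 1 and 2 of droughted Vagad, 16 of the 26 were called lower in Vagad, against 2.33% of probe sets. They included all 4 small heat shock proteins and all 4 thiamine probe sets. HSP21 (Ghi2233.1.S1_at) was at -2.88 and ATHSP22.0 (GhiAffx25696.1.S1_at) at -2.16. With all 6 droughted arrays limma gave them -4.49 ± 1.24 and -3.47 ± 1.13 (SE, adjusted p = 0.327 for each). THIC was furthest below for GraAffx9604.1.S1_s_at, at -2.99 ± 0.16 (SE, adjusted p = 4e-05), and THI1 (Gra2938.2.A1_at) had -1.22 ± 0.22 (SE, adjusted p = 0.0124). Of the 27, 5 were called higher in Vagad, against 1.96%, and 1 lower. Those higher were GSTU7 (GhiAffx25393.1.S1_at) at 1.89 ± 0.27 (SE, adjusted p = 0.00508), hydroperoxide lyase (GhiAffx47143.1.S1_at) at 1.31 ± 0.0798 (SE, adjusted p = 7.98e-05), the AP2 domain factor (Ghi7074.1.S1_x_at) at 1.11 ± 0.27 (SE, adjusted p = 0.0387), and the unnamed Ghi1606.1.S1_at and GhiAffx1589.45.S1_s_at, at 2.13 ± 0.20 (SE, adjusted p = 0.000772) and 1.63 ± 0.10 (SE, adjusted p = 0.000102). Peroxidase 10 (GhiAffx21573.1.S1_at) was lower, at -1.10 ± 0.24 (SE, adjusted p = 0.0285). For GhiAffx1589.45.S1_s_at the intensities were 1792, 35.9 and 2990 in droughted Vagad, 8685, 8318 and 7468 in watered Vagad, 1028, 962 and 916 in droughted RAHS-14, and 3608, 4021 and 3721 in watered RAHS-14. With all 6 arrays its difference had the other sign, at -0.75 ± 1.64 (SE, adjusted p = 0.754). The same held for Ghi5945.1.S1_s_at among the 16 called lower, with 0.31 ± 1.16 (SE, adjusted p = 0.856) over all 6 arrays and -2.40 ± 0.26 (SE, adjusted p = 0.00175) without replicates 1 and 2. In a fit that left out replicate 3 and kept replicates 1 and 2, 11 of the 27 were called, all higher in Vagad, and 14 of the 26, 11 lower and 3 higher. Of all probe sets that fit called 29.6% higher and 9.02% lower.

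The rest of the fixed annotation lists held few members. Of 48 cell wall probe sets 1 was a member, the glycine-rich protein. Of 16 for chlorophyll and photosynthesis 1 was a member, the Rubisco probe set, and of 33 for lipid transfer and lipid enzymes 2 were. Of 45 for proteases and ubiquitin 1 was a member, the probe set Ghi6529.1.S1_at annotated as an inhibitor, and of 2 for retroelements 1 was, the reverse transcriptase. The lists for starch and sugar enzymes (16), for chitinases, osmotin and defence proteins (21) and for transporters and aquaporins (52) held 0. Probe sets that can bind several transcripts made up 37.0% of the 27 and 53.8% of the 26, against 47.0% of all. A gene or family name was found for 18 of the 27 and 16 of the 26, against 3.99% of all probe sets, since the annotation lists cover only probe sets that the study had picked from these arrays.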

How the data were processed

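Root RNA from 12 samples was measured on Affymetrix cotton arrays. The deposited values were linear intensities, made by the authors with MAS5, which the submitters' processing notes name without a version. The methods scale every array to a common target mean and also name RMA values, which were not used. Of 24132 probe sets, 103 controls were left out. Intensities were floored at 16 and put on the log2 scale, and no further normalization or filter was applied. The number of arrays limits the precision.

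Members were selected on 9 arrays by the rule given at the start of the results. Members, lists and rules were chosen with earlier results of these data known. Droughted Vagad was compared with watered Vagad and with droughted RAHS-14 by moderated linear models (limma 3.58.1, R 4.3.3, 6 arrays, both tails, adjusted over all 24029 probe sets), with code tested on simulated data. Alternatives were a floor of 64, quantile normalization, median centring, probe sets above the median mean, a replicate block, a joint fit of all 12 arrays, leaving out arrays, no separation of groups, and the methods' t-test. Tables were made with Python 3.11.15 and pandas 2.3.3.

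Genes were named from the annotation lists of the study, matched to other species; 958 probe sets have a name there. The reference table lists 756 probe sets, 4 of them members, with LOC symbols only. Named members are, in each direction, the 15 named ones with the largest smaller difference, the 4 unnamed ones by the same order and any in a keyword list. Multicopper oxidase, the membrane protein, Ghi7950.1.S1_at, Ghi5945.1.S1_s_at, GhiAffx1589.45.S1_s_at and GhiAffx39121.1.S1_s_at were named after their values were seen. So were the further heat shock and THI1 probe sets, the single marker probe sets and those just outside the rule. Probe set names are written without the point after their prefix.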

Additional observations from a re-analysis of the deposited data

How the results depend on the processing

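The 27 members higher in watered Vagad became 17 with a floor of 64, all among the 27, and 41 with median centring, which held all 27. They were 26 with quantile normalization (22 shared), 18 among probe sets above the median mean, and 27 without the separation of groups. The 26 in the other direction became 14 with a floor of 64, all among the 26, and were 21, 19, 21 and 26 under quantile normalization, median centring, the mean filter and no separation. Leaving out each of the 9 arrays gave 27 to 30 and 26 to 32. Single members' differences were recomputed under the floor, quantile, centring and leave-out settings. Of these values, 160 moved by more than the spread between replicates and 2384 did not. Many of the 2384 left out an array that the difference does not use, so they could not move. A reversal was counted only where the main difference was at least 1 in size, and there 0 were reversed. Members called between droughted and watered Vagad were 0 with all arrays. A joint fit of all 12 arrays called 20, with 529 higher and 208 lower among all probe sets. They were 45 once replicates 1 and 2 of droughted Vagad were left out and 23 by the methods' t-test at its unadjusted threshold. Leaving out 1 array gave 0 to 22, the 22 without replicate 3 of droughted Vagad, which leaves replicates 1 and 2. Between the droughted genotypes the count was 0 with all arrays, 22 without replicates 1 and 2, 8 in the joint fit of 12 arrays (74 higher and 53 lower among all probe sets), 15 by the unadjusted t-test, 1 by the adjusted t-test and 1 with a floor of 64. Leaving out 1 array gave 0 to 25, the 25 again without replicate 3. With the replicate number as a block both counts were 0. Deviations of droughted Vagad arrays correlated between -0.031 and 0.047 with those of same-numbered watered Vagad and droughted RAHS-14 arrays. The other groups were not compared with each other, and droughted Vagad was widely spread, so this check cannot settle whether numbers pair samples. The main fits did not pair them. The causes of these differences were not tested, apart from the fewer probe sets or arrays that some settings leave. Values at or below 16 carry no order, and calls without replicates 1 and 2 rest on 1 droughted Vagad array.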
